A study of Mus musculus with 6 samples.

Results

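Red blood cells first arise in the embryo as large primitive erythroid cells of the yolk sac. The genes described here are a list chosen for this lineage, though not all of them are confined to it. They are the embryonic globins Hbb-bh1, Hbb-y and Hba-x, the haem enzyme gene Alas2 and the receptor gene Epor. The others are the transcription factor genes Klf1 and Nfe2, the nuclear protein gene Hemgn and the membrane protein gene Gypc. All 13 probe sets whose single gene symbol in the platform annotation was one of these 9 names were taken, of 45101 probe sets and 18193 named genes on the array. Hbb-bh1 and Hbb-y had 3 probe sets each and the other genes 1 each.

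Mouse embryonic stem (ES) cells were kept for 2 days in a medium that precedes aggregation and were then grown, from 100000 cells per well, as embryoid bodies, floating aggregates in which mesoderm forms. On day 4, cells carrying the receptor Flk1 (gene Kdr) on their surface were sorted, and total RNA was measured on 6 Affymetrix arrays in 3 groups of 2. The WT Scl+ and WT Scl- groups came from a single reporter line, derived from R1 ES cells of a (129/Sv x 129/Sv-CP)F1 blastocyst, in which human CD4 was knocked into the locus of Scl (gene Tal1), a basic helix-loop-helix transcription factor required for blood formation; they were Flk1+ cells with and without human CD4. The SclKO group came from a single line without functional Scl, derived from J1 ES cells of strain 129S4/SvJae, and was sorted for Flk1 alone although its titles call it Scl-. In every comparison with SclKO, the loss of Scl, the origin of the ES cells and the gate of the sort cannot be told apart. The sources used here do not give whether the reporter allele itself still makes Scl. They also do not say whether the 2 arrays of a group came from separate cultures, so the p-values cover the spread from array to array, which may be technical.

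Primitive erythroid cells carry haemoglobins made of embryonic chains, whose genes lie in the same clusters as the adult globin genes and are switched on first. Haem is built in a chain of enzymes that starts, in erythroid cells, with the product of Alas2, and survival and growth of the cells depend on erythropoietin and its receptor. Scl works on erythroid genes in complexes that bind E-box and GATA motifs together with GATA1, LMO2 and LDB1.

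Levels are natural logs of the deposited values, and differences between them are called log units. The base of the deposited values is not stated: 1 log unit is 2-fold if the natural logs are the log2 values that the authors' method gives, and 2.72-fold if they are not. Folds are given in that order. A value under its array's 40th percentile (4.54 to 4.59 on the 6 arrays) is called dim and gives no exact level, and folds "at the limit" set such values to that percentile. Tal1 was at 8.65 and 8.78 in WT Scl+, 6.52 and 7.97 in WT Scl- and 5.71 and 6.14 in SclKO, so that WT Scl- replicate 2 lay nearer to WT Scl+ than replicate 1 did. Kdr lay between 10.83 and 11.35 on all arrays. WT Scl+ replicate 2 stood apart from the rest: over the probe sets tested its correlation with the other arrays was 0.9371 to 0.9637, against 0.9725 to 0.9858 among the other arrays, so results are also given without it where that matters. The arrays measure mixed cells, in which fewer cells of a type and less RNA per cell cannot be told apart.

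The DNA before the start sites of the members was searched because Scl complexes are known to use GATA motifs and E-boxes. No sequence of Hbb-bh1, Nfe2 or Gypc was searched, so the matches say nothing about these genes. For the other 6 of the 9 genes, the 250 bases upstream of the start annotated in RefSeq (GRCm38.p6) were searched. Those of Hba-x, Alas2, Epor and Klf1, the 4 of them with a tested probe set, are printed 5′ to 3′ with GATAA on either strand and CANNTG in capitals.

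Hba-x (chr11:32276350-32276599, strand plus): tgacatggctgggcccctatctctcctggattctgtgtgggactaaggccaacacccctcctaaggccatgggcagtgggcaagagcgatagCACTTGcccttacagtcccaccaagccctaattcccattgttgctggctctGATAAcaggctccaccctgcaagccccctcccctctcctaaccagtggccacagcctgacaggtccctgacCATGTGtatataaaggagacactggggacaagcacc

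Alas2 (chrX:150547167-150547416, strand plus): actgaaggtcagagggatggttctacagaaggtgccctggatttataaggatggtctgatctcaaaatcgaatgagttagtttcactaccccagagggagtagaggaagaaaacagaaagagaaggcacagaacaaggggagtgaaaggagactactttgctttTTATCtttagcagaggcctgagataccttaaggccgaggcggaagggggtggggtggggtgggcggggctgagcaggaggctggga

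Epor (chr9:21963577-21963826, strand minus): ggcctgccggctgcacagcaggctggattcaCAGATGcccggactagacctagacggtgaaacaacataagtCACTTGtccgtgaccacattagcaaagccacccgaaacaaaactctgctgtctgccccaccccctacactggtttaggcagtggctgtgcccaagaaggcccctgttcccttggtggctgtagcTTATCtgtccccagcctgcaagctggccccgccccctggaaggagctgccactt

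Klf1 (chr8:84901732-84901981, strand plus): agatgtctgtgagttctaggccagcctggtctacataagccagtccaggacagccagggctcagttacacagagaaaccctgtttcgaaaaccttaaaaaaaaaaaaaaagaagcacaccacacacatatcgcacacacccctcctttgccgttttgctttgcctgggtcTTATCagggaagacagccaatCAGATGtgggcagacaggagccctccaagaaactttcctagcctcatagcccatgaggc

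Each of the 6 sequences, including those of Hbb-y and Hemgn, held exactly 1 match to GATAA or its reverse complement TTATC. The same search found at least 1 match in 22.6% of all 32851 promoter windows of this length. The match began 162 bases before the start site of Hbb-y, 107 before that of Hba-x, 86 before that of Alas2, 80 before that of Klf1, 54 before that of Epor and 12 before that of Hemgn. CANNTG, the E-box, had 2 matches each in Hba-x, Epor and Hemgn, 1 in Klf1 and 0 in Hbb-y and Alas2, beside 66.2% of all windows with a match. CACCC or its reverse complement GGGTG, the kind of motif that Klf1 binds, was present in 5 of the 6 windows and in 52% of all windows. CANNTG reads the same on both strands, no match to one motif overlapped a match to another in the 6 windows, and a match describes letters and not binding.

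Of the 13 probe sets, 9 passed the filter for testing, 2 or more of the 6 arrays above the 40th percentile. These were the 3 of Hbb-bh1 and those of Hba-x, Alas2, Epor, Klf1, Nfe2 and Gypc. The 3 probe sets of Hbb-y and that of Hemgn were dim on all 6 arrays and were not tested. Hba-x was above the limit only on the WT Scl+ arrays, and Hbb-bh1 1437990_x_at and 1450736_a_at on those and 1 other, so these 3 passed only through WT Scl+. Hence counts over the probe sets tested describe them and are no support for a difference.

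**Figure D1:**
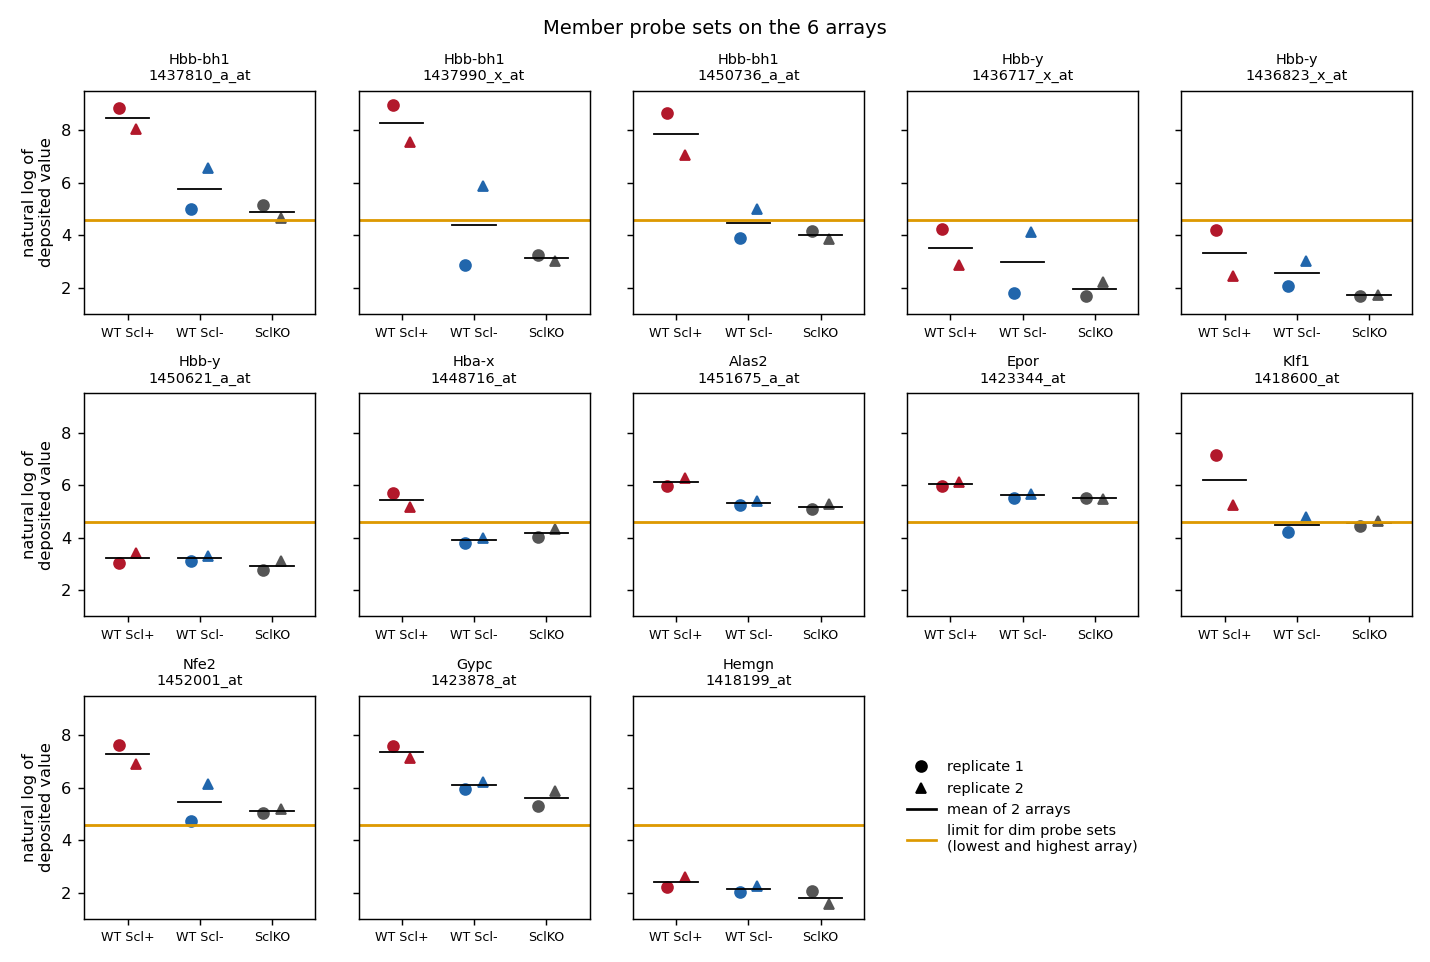
Level of each of the 13 probe sets (natural log of the deposited value) in WT Scl+ (red), WT Scl- (blue) and SclKO (grey); circles are replicate 1, triangles replicate 2, black bars the mean of 2 arrays and orange lines the lowest and highest limit for dim probe sets. The 3 Hbb-bh1 probe sets lie between 7.04 and 8.97 in WT Scl+ and at or below 6.55 elsewhere, whereas the Hbb-y and Hemgn probe sets lie under the limit on all arrays.

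In each of the 9 probe sets tested, which stand for 7 genes, both WT Scl+ arrays read higher than the 4 other arrays. Over all probe sets tested, 16.6% lay higher without overlap in WT Scl+ than in WT Scl-, and 18.2% lay lower in SclKO than in WT Scl+. The share of probe sets that did both was not counted. None of the members' differences passed at a limma adjusted p under 0.05, and Hbb-y and Hemgn were too dim to compare. Hbb-bh1, the embryonic beta-like globin that primitive red cells switch on early, had the widest gap. Its brightest probe set (1437810_a_at) was at 8.85 and 8.04 in WT Scl+, 4.99 and 6.55 in WT Scl- and 5.15 and 4.65 in SclKO. Both WT Scl+ arrays lay above the 4 others, and WT Scl- replicate 2 lay above both SclKO arrays while replicate 1 lay between them. WT Scl+ exceeded WT Scl- by 2.67 log units (SE 0.54, 6.37-fold or 14.5-fold, limma adjusted p = 0.439), and 1.89 without WT Scl- replicate 1.

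Both other Hbb-bh1 probe sets gave larger differences from dimmer starting points. Probe set 1437990_x_at, of a class that can read related sequences, was at 8.97 and 7.57 in WT Scl+, 2.88 and 5.87 in WT Scl- and 3.25 and 3.02 in SclKO. Its difference of 3.89 log units in WT Scl+ over WT Scl- (SE 0.96, adjusted p = 0.439, limma) was the largest among all 28363 probe sets tested, but ranked 8 once dim values were set to the limit (3.04 log units, 8.25-fold or 21-fold). Without WT Scl- replicate 1 it was 2.39 log units. Probe set 1450736_a_at was at 8.64 and 7.04 in WT Scl+, 3.91 and 4.98 in WT Scl- and 4.17 and 3.84 in SclKO. As for the brightest probe set, the 2 WT Scl+ arrays were on top and WT Scl- replicate 2 came next. The other arrays were dim, so that no order between them can be read. It differed by 3.39 log units (SE 0.58, limma adjusted p = 0.439), or 3.06 (8.33-fold or 21.3-fold) with the dim WT Scl- replicate 1 at the limit, and ranked 7 both as measured and at the limit.

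Hba-x, the embryonic alpha-like (zeta) globin that pairs with the embryonic beta-like chains, was above the limit in WT Scl+ alone. It was at 5.72 and 5.18 in WT Scl+, 3.81 and 3.99 in WT Scl- and 4.01 and 4.32 in SclKO. The 4 arrays outside WT Scl+ were dim, so that no order between WT Scl- and SclKO can be read. The difference from WT Scl- was 1.55 log units (SE 0.24, adjusted p = 0.439, limma), or at least 1.82-fold or 2.38-fold at the limit.

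Hbb-y, the epsilon-type embryonic beta-like globin, was not above the limit on any array with any probe set. Its probe set 1436717_x_at was at 4.22 and 2.85 in WT Scl+, 1.81 and 4.13 in WT Scl- and 1.67 and 2.2 in SclKO. WT Scl+ replicate 1 and WT Scl- replicate 2 stood out as high, so that the WT groups overlapped. Probe set 1436823_x_at was at 4.2 and 2.44, 2.06 and 3.02, and 1.69 and 1.73 in the same order of groups, again with overlap of the WT groups. The third, 1450621_a_at, stayed between 2.75 and 3.43 on all 6 arrays.

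Alas2 encodes the erythroid enzyme that catalyses the first step of haem synthesis. Its level was 5.98 and 6.27 in WT Scl+, 5.23 and 5.41 in WT Scl- and 5.1 and 5.27 in SclKO. The WT Scl+ arrays lay above the 4 others, which overlapped. WT Scl+ exceeded WT Scl- by 0.8 log units (SE 0.18, 1.74-fold or 2.23-fold, adjusted p = 0.439, limma). Epor, the receptor for erythropoietin, had the smallest gap of the tested members, at 5.96 and 6.14 in WT Scl+, 5.53 and 5.68 in WT Scl- and 5.53 and 5.47 in SclKO. Its groups kept the same order without overlap of WT Scl+, and the difference from WT Scl- was 0.44 log units (SE 0.16, 1.36-fold or 1.56-fold, adjusted p = 0.505, limma).

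Klf1, the Krüppel-like activator of globin and other erythroid genes, had the widest gap between the 2 WT Scl+ arrays of any member. It was at 7.15 on WT Scl+ replicate 1 but at 5.24 on replicate 2, and at 4.22 and 4.78 in WT Scl- and 4.45 and 4.63 in SclKO. The 2 WT Scl+ arrays still lay above the rest, where 1 array of each group was dim. WT Scl+ exceeded WT Scl- by 1.7 log units (SE 0.59, limma adjusted p = 0.494), or 1.52 (2.87-fold or 4.58-fold) at the limit, and 0.74 without WT Scl+ replicate 1.

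Nfe2, the blood-restricted subunit of the NF-E2 factor that acts on globin control regions, was at 7.63 and 6.91 in WT Scl+, 4.74 and 6.13 in WT Scl- and 5.04 and 5.19 in SclKO. WT Scl- replicate 2 lay between the WT Scl+ arrays and the other 3. WT Scl+ exceeded WT Scl- by 1.83 (SE 0.47, 3.56-fold or 6.25-fold, limma adjusted p = 0.439), and 1.13 without WT Scl- replicate 1. Hemgn, a nuclear protein of blood progenitors, was dim throughout, between 1.55 and 2.58.

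Gypc, a glycophorin that ties the red cell membrane to its skeleton, was above the limit for dim values on all arrays. It was at 7.57 and 7.13 in WT Scl+, 5.95 and 6.23 in WT Scl- and 5.31 and 5.87 in SclKO. The 3 groups did not overlap, in the order WT Scl+, WT Scl- and SclKO. WT Scl+ exceeded WT Scl- by 1.26 log units (SE 0.26, 2.39-fold or 3.51-fold, limma adjusted p = 0.439).

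Across WT Scl+ and WT Scl-, all 13 probe sets read higher in WT Scl+, by a median of 1.26 log units as measured, beside 47.5% positive and a median of -0.016 over all 45037 probe sets that are not controls. The 4 probe sets that are dim on all arrays carry no direction: at the limit 9 of the 13 were higher and the median was 0.87. Of these 4, the Hbb-y differences turned sign when 1 array was left out, to -0.6 for 1436717_x_at without WT Scl- replicate 1, to -0.1 for 1436823_x_at without WT Scl+ replicate 1 and to -0.19 for 1450621_a_at without WT Scl+ replicate 2. No probe set of any gene was called at a limma adjusted p under 0.05 (0% of 28363, lowest adjusted p = 0.439), whereas 4.44% were higher at an unadjusted p under 0.05 and 1.11% were higher at an unadjusted p under 0.01. Of the 9 member probe sets tested, 9 were higher at the first and 7 at the second of these unadjusted thresholds. The 3 Hbb-bh1 probe sets were among both counts, so that the 7 stood for 5 genes. The arrays did not overlap, with WT Scl+ higher, for all 9, beside 16.6% of the probe sets tested. For fits with fewer arrays the share of all probe sets under 0.01 was not counted. The count of 7 was 3 without WT Scl+ replicate 1 and 4 without WT Scl- replicate 1, and also 4 without either SclKO array or in a fit of only the 4 arrays compared, which change only the estimate of the spread.

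**Figure D2:**
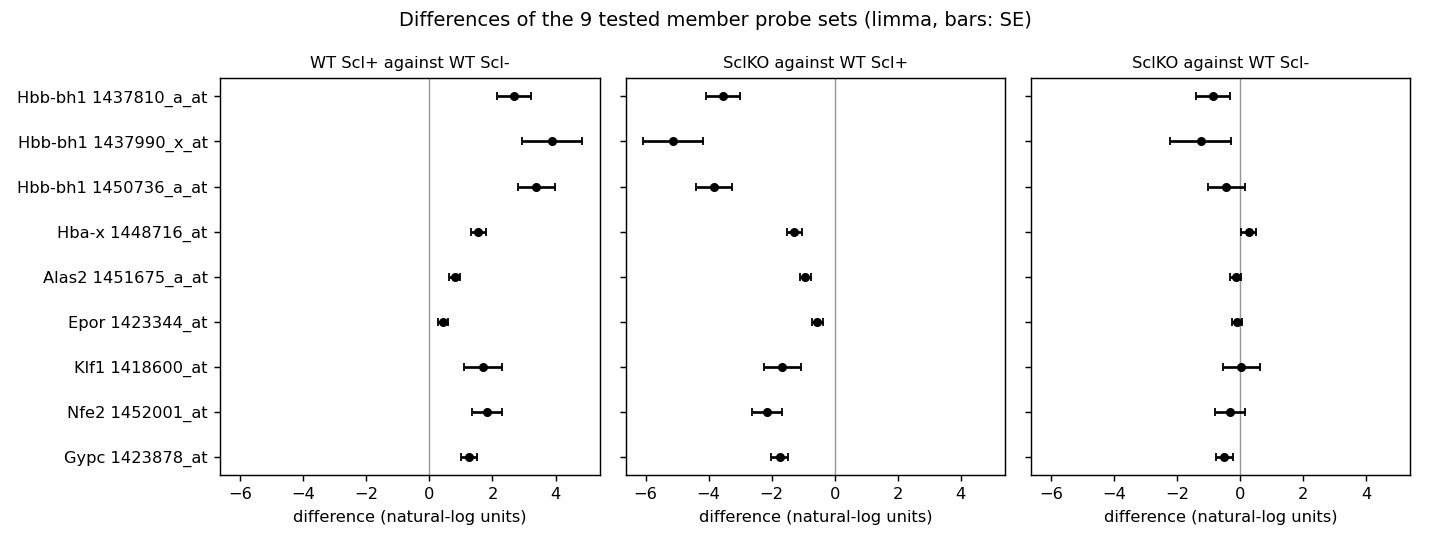
Difference in log units of each of the 9 tested member probe sets for the 3 comparisons (points) with its SE from limma (bars). All 9 lie above 0 for WT Scl+ against WT Scl-, from 0.44 to 3.89, and below 0 for SclKO against WT Scl+, from -5.13 to -0.55, and the SclKO against WT Scl- differences run from -1.25 to 0.27.

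The comparison of SclKO with WT Scl+ asks how far the genes are read in Flk1+ cells without functional Scl. All 13 probe sets were lower in SclKO, with a median difference of -1.61 log units, beside 52.1% positive and a median of 0.015 over all probe sets. This comparison shares the 2 WT Scl+ arrays with the one before, so a low or high value there moves both. The median was -1.01 without WT Scl+ replicate 1, -2.28 without replicate 2, and -0.94 with dim values set to the limit, where the 4 probe sets that are dim on all arrays carry no difference.

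Hbb-bh1 again had the widest gaps. Its 3 probe sets differed by -3.54 log units (SE 0.54, 11.7-fold or 34.6-fold, 1437810_a_at), -5.13 (SE 0.96, 1437990_x_at) and -3.83 (SE 0.58, 1450736_a_at; -3.27 at the limit), with limma adjusted p = 0.136, 0.154 and 0.136. The 1437990_x_at difference was the most negative of all probe sets tested, and ranked 16 with dim values at the limit, where the gap was 13-fold or 40.6-fold or more. Hba-x differed by -1.28 log units (SE 0.24, adjusted p = 0.152, limma), or at least 1.85-fold or 2.43-fold at the limit. The 2 Hbb-y probe sets of the x class were lower in SclKO without overlap, with differences of -1.6 and -1.61 log units, on arrays where all values were dim.

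Among the other members, Nfe2 differed by -2.16 log units (SE 0.47, 4.45-fold or 8.63-fold, adjusted p = 0.19, limma) and Gypc by -1.75 (SE 0.26, 3.37-fold or 5.78-fold, adjusted p = 0.136). Klf1 differed by -1.66 log units (SE 0.59, adjusted p = 0.336, limma), and by -0.7 without WT Scl+ replicate 1 and -2.61 without replicate 2. Alas2 and Epor, whose arrays agreed closely within groups, differed by -0.94 (SE 0.18, adjusted p = 0.166, limma) and -0.55 (SE 0.16, adjusted p = 0.269). Hemgn differed by -0.59 log units, dim on all arrays.

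By limma, 3 probe sets of the whole array were called (0.0106%), none of them a member. At unadjusted p under 0.05, 5.68% of all probe sets tested were lower in SclKO, and under 0.01 2.06% were lower and 1.86% higher. Of the 9 member probe sets tested, 9 and 7 were lower at these thresholds, and all 9 lay lower without overlap, beside 18.2% of all tested. Again the 3 Hbb-bh1 probe sets were among both counts, so that the 7 stood for 5 genes. Shares of all probe sets under 0.01 were not counted for fits with an array left out. Without SclKO replicate 1 the count of 7 was 4. Without WT Scl+ replicate 1, which leaves the array that stands apart as the only one of its group and gave 1172 calls over all probe sets, Hbb-bh1 1450736_a_at (-3.03 log units, limma adjusted p = 0.0428) and Alas2 (-1.09, adjusted p = 0.0477) were called.

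SclKO and WT Scl- were the 2 groups lower in Tal1. Between them the median difference over the 13 probe sets was -0.32 log units, with 11 negative and 2 positive, beside 50.7% positive and a median of 0.0041 over all probe sets. The 2 positive ones, Hba-x and Klf1, were at 0.27 (SE 0.24) and 0.04 (SE 0.59) as measured and at -0.02 and -0.09 with dim values set to the limit. Hbb-bh1 differed by -0.87 (SE 0.54, limma adjusted p = 0.946), -1.25 (SE 0.96) and -0.44 (SE 0.58), the last 2 resting on dim SclKO arrays and at -0.66 and -0.21 with values at the limit. Nfe2 differed by -0.32 (SE 0.47) and Gypc by -0.5 log units (SE 0.26, limma adjusted p = 0.928). Alas2 and Epor differed by -0.14 (SE 0.18) and -0.11 (SE 0.16).

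These differences turned on the 2 WT Scl- arrays. Without WT Scl- replicate 1 Hbb-bh1 1437810_a_at differed by -1.65 log units and Nfe2 by -1.02. Without replicate 2 they differed by -0.09 and 0.37. No member was called by limma, 0 of 9 were lower at an unadjusted p under 0.05 (2.77% of all probe sets tested) and 0 were lower or higher under 0.01 (0.592% and 0.483%), while 3 probe sets of the whole array were called (0.0106%). Of the 9, 2 lay lower in SclKO without overlap, Epor and Gypc, beside 19.5% of all tested. With an array left out, the share of all probe sets under that threshold was not counted, so member counts from such fits are not read as a result.

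The 2 WT Scl- arrays were themselves unlike in these genes. All 13 member probe sets were higher on replicate 2 than on replicate 1, by a median of 0.56 log units, beside 49.6% of all probe sets with a median of -0.0016. Tal1 was higher on the same array, at 7.97 against 6.52. On the WT Scl+ arrays 9 of the 13 were lower on replicate 2 by a median over all 13 of -0.72, and 4 were higher, among them Alas2 and Epor. On the SclKO arrays 8 were higher on replicate 2 and 5 lower, with a median of 0.15.

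Over the 6 arrays, which fall into 3 groups and include the split within WT Scl-, the members' levels went along with that of Tal1 to unequal degrees. Pearson's r with Tal1 was 0.87 to 0.94 for the Hbb-bh1 probe sets and 0.9 to 0.93 for Alas2, Epor, Nfe2 and Gypc. It was 0.74 for Hba-x, 0.7 for Klf1 and 0.75 for the dim Hemgn. Among 2323 genes tested with a range of at least 1 log unit, the 5 whose brightest probe set was most like Hbb-bh1 1437810_a_at over the 6 arrays were Slc39a8, a metal ion transporter (r = 0.9979), Frmd5 (0.9948), Myct1 (0.9945), the homeobox gene Hoxb5 (0.9937) and Tbc1d8 (0.991). Slc39a8, for example, was at 10.82 and 10.27 in WT Scl+, 8.93 and 9.64 in WT Scl- and 8.99 and 8.74 in SclKO. These correlations describe 6 arrays of 3 groups and carry no test. Myct1 was dim on all WT Scl- and SclKO arrays and Hoxb5 on 1 SclKO array. Their r values therefore rest in part on values that give no exact level.

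Other genes of the erythroid programme were read through lists drawn up from textbook knowledge, but with earlier results of these data known. The counts below therefore describe the lists and are no support for a difference. Each gene was read by 1 probe set, the brightest. None of the listed genes had a limma adjusted p under 0.05 in any comparison. Klf1 and Nfe2 act beside many other factors. Of 21 erythroid transcription factor genes tested, 4 were higher and 0 lower in WT Scl+ than WT Scl- at an unadjusted p under 0.01, beside 1.11% higher and 1.14% lower of all probe sets, and 7 were lower and 1 higher in SclKO than in WT Scl+, beside 2.06% and 1.86%. The median difference of the 22 measured was 0.3 log units and -0.25, beside 1.26 and -1.61 for the 13 member probe sets. With 1 probe set per gene, as in the lists, the member medians were 1.26 and -1.28.

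Gata1, the factor that drives erythroid differentiation, was at 7.48 and 6.08 in WT Scl+, 4.93 and 5.22 in WT Scl- and 4.11 and 4.46 in SclKO. WT Scl+ lay above both other groups, and SclKO was dim on both arrays. Over WT Scl- the gap was 1.7 (SE 0.44, limma adjusted p = 0.439) and that of SclKO from WT Scl+ -2.49 (SE 0.44, adjusted p = 0.148). The others in the first comparison were Lyl1, a relative of Scl (2.11, SE 0.45), Gfi1b, a repressor needed for red cells and platelets (1.56, SE 0.25), and E2f2, a cell cycle factor (0.66, SE 0.17). In SclKO against WT Scl+ the genes named by size as measured were Cbfa2t3 (-4.77, SE 0.73), Myb (-4.42, SE 0.76), Lyl1 (-3.47, SE 0.45) and Gata1. Cbfa2t3 was dim on 1 SclKO array and Myb, Lyl1 and Gata1 on both, and at the limit the differences were -4.43, -4.14, -3.05 and -2.21, the last smaller than that of Gata2 (-2.29), which was dim on neither. Bcl11a, a repressor of embryonic globin genes, was the 1 gene higher in SclKO (0.79, SE 0.18, adjusted p = 0.202, limma), at 7.05 and 7.06 against 6.46 and 6.08 in WT Scl+. Gfi1b, dim on both SclKO arrays, was also lower in SclKO than in WT Scl- (-0.91 as measured, SE 0.25, limma adjusted p = 0.886, and -0.48 at the limit).

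The list of erythropoietin and stem cell factor signalling genes held the stem cell factor receptor Kit and its ligand Kitl themselves. Of its 12 genes tested, 3 were higher in WT Scl+ than WT Scl- at an unadjusted p under 0.01 and none lower. The shares of all probe sets tested were 1.11% and 1.14%. In SclKO 4 were lower than in WT Scl+ and none higher, beside 2.06% and 1.86%. Kit was among both the 3 and the 4. Stat5b, a transcription factor activated by erythropoietin receptor signalling, was at 8.58 and 8.32 in WT Scl+, 6.74 and 7.6 in WT Scl- and 6.36 and 6.39 in SclKO. The groups did not overlap. It differed by 1.28 (SE 0.29) and -2.08 log units (SE 0.29, adjusted p = 0.136, limma), and its partner Stat5a by 1.46 (SE 0.4) and -2.52 (SE 0.4). Kit differed by 1.17 (SE 0.32) and -1.49 (SE 0.32), and Pim1, a kinase gene downstream of STAT5, by -0.73 (SE 0.17) in the second comparison. Gab1, an adaptor, was higher in WT Scl+ than WT Scl- by 0.86 (SE 0.22) but differed by -0.11 (SE 0.22) in SclKO.

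Haem genes other than Alas2, and iron, membrane and late enzyme genes, were counted at the same unadjusted threshold. Over all probe sets tested, 1.11% were higher and 1.14% lower in WT Scl+ than WT Scl-. In SclKO 2.06% were lower and 1.86% higher than in WT Scl+, and 0.592% lower and 0.483% higher than in WT Scl-. In lists this short, counts of 0 or 1 are not read as a result beside these shares. Of 13 haem genes tested, none had an unadjusted p under 0.01 in WT Scl+ against WT Scl-. In SclKO 1 was lower than in WT Scl+, the transporter gene Abcb10 (-1.34, SE 0.29, adjusted p = 0.184, limma). Alas1, the housekeeping form of the enzyme, lay between 6.49 and 7.14 on all arrays. No iron gene of 9 tested passed that threshold in any comparison. Of 17 red cell membrane genes measured, 5 were dim on all arrays, among them Rhag, Kel and the anion exchanger gene Slc4a1, and of the 10 tested only Tspan33 passed, higher in WT Scl+ than WT Scl- by 1.62 log units (SE 0.28) and lower in SclKO than in WT Scl+ (-1.55, SE 0.28). Late red cell enzyme genes had no such difference in any of the 10 tested, with medians of -0.03 and -0.04 log units.

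Of the genes beside Hba-x in the alpha globin region of chromosome 11, none of those tested had an unadjusted p under 0.01. Over all probe sets tested, 1.11% were higher and 1.14% lower in WT Scl+ than WT Scl- at that threshold. For SclKO against WT Scl+, 2.06% were lower and 1.86% higher. Nprl3, whose introns hold the distal enhancers of the cluster, was at 6.74 and 5.93 in WT Scl+, 6.49 and 6.49 in WT Scl- and 6.28 and 6.49 in SclKO. The groups overlapped. Rhbdf1 differed by 0.65 log units in WT Scl+ against WT Scl- (SE 0.24, limma adjusted p = 0.506) and by -0.65 in SclKO against WT Scl+. The list also held Polr3k, which RefSeq places on chromosome 2.

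Adult globin genes gave mixed readings. The probe set shared by 4 adult beta globin genes (1417184_s_at) was at 6.97 and 5.51 in WT Scl+, 4.78 and 4.85 in WT Scl- and 4.74 and 4.79 in SclKO. WT Scl+ replicate 1 alone stood far above the rest. WT Scl+ exceeded WT Scl- by 1.43 (SE 0.44, limma adjusted p = 0.468). Whether this probe set reads adult or embryonic beta-like transcripts, which share sequence, was not tested.

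**Figure D3:**
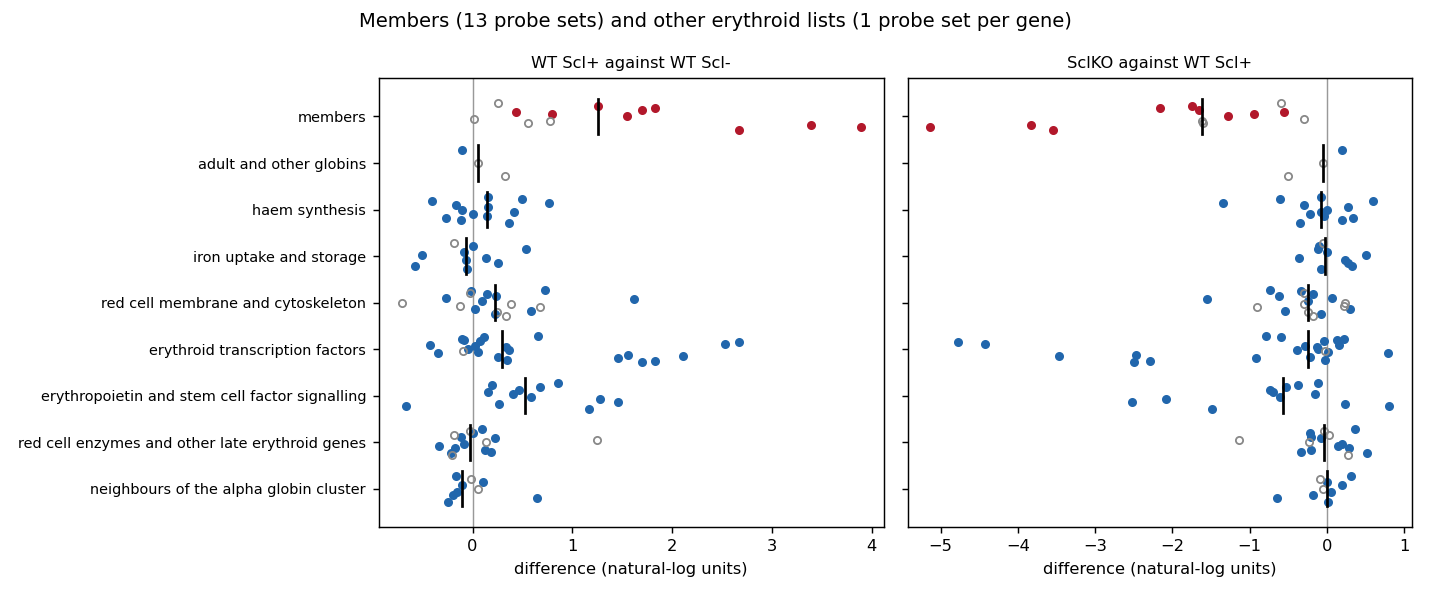
Difference in log units of the 13 member probe sets (red) and of 1 probe set per gene for 8 other erythroid lists (blue), for 2 comparisons; open grey circles were not tested and black bars are list medians. The member medians are 1.26 and -1.61 over the 13 probe sets, and 1.26 and -1.28 with 1 probe set per gene. Those of the other lists lie between -0.11 and 0.53 and between -0.57 and 0.

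Markers of other cell types differed between the same groups, and their part in the members' differences was not tested. Of all probe sets, 47.5% read higher in WT Scl+ than WT Scl-. Endothelial markers were higher in WT Scl+ than WT Scl- for 7 of 7 genes, and their summed level was 49.11 and 52.94 in WT Scl+, 33.3 and 45.29 in WT Scl- and 35.83 and 41.96 in SclKO, with Emcn dim on all arrays. The endothelial sum was higher on WT Scl+ replicate 2 than on replicate 1. Over the member probe sets the mean level was 5.45 on replicate 2 against 6.16 on replicate 1. Their median level was 6.14 against 5.98, so the direction depends on the summary used. Markers of megakaryocytes and early blood were higher for 3 of 5, with sums of 27.14 and 28.79, 25.82 and 25.74, and 23.26 and 24.66 in the 3 groups and Pf4 dim on all arrays. Macrophage and leukocyte markers were higher for 5 of 7, with sums of 38.83 and 40.55, 34.54 and 38.98, and 35.22 and 37.28, and Ptprc and Lyz2 were dim on all arrays. Visceral endoderm markers, the yolk sac layer next to the blood islands, were higher for 5 of 7, with sums of 36.38 and 35.81, 33.2 and 34.28, and 35.45 and 34.93. Amn was dim on all arrays, and Afp and Cubn on 5 each. Sox17 had the largest of these differences (1.51, SE 0.48), and Afp, counted as higher, differed by -0.02 at the limit.

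In the opposite direction, 4 of 4 primitive streak markers were lower in WT Scl+ than WT Scl-, with sums of 35.44 and 30 in WT Scl+, 40.76 and 38.71 in WT Scl- and 41.49 and 41.16 in SclKO. Pluripotency markers ran from 29.6 on WT Scl+ replicate 2 to 39.32 on SclKO replicate 1, and cardiac markers from 27.64 to 30.12. Of the genes used to check the sorted cells as Flk1+ mesoderm, Kdr was bright on all arrays, and all 5, Kdr, Pdgfra, Cdh2, Tbx20 and Hand1, were above the limit on all arrays. All 5 had a negative difference between WT Scl+ and WT Scl-, with a median of -1.13 log units, from Hand1 (-1.4), Cdh2 (-1.21), Pdgfra (-1.13) and Tbx20 (-0.9) to Kdr (-0.08), and 4 of 5 were higher in SclKO than in WT Scl+. The part of this in the members' differences was not tested.

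**Figure D4:**
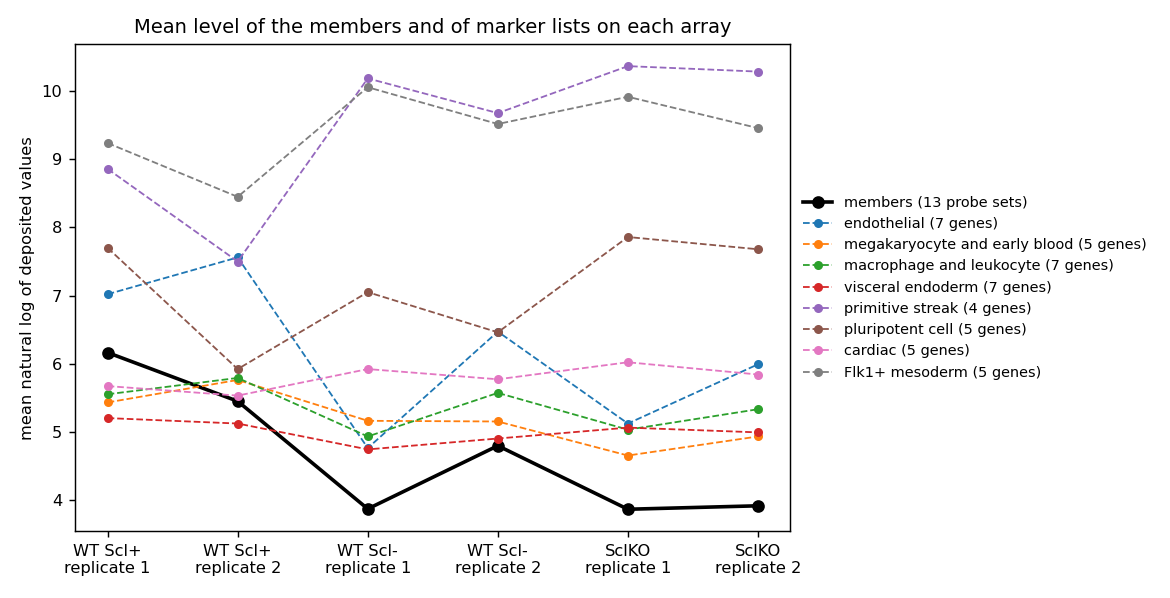
Mean natural log of the deposited values of the 13 member probe sets (black) and of 8 marker lists (dashed) on each of the 6 arrays. The members run from 3.86 on SclKO replicate 1 to 6.16 on WT Scl+ replicate 1, with 4.79 on WT Scl- replicate 2 and 3.87 on replicate 1, and the endothelial markers run from 4.76 on WT Scl- replicate 1 to 7.56 on WT Scl+ replicate 2.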

How the data were processed

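The authors' deposited values were used, 1 per probe set and array, with no raw scans. Per the submitters' processing notes the authors used RMA, affy and limma, without versions; RMA corrects background, normalises by quantiles and gives 1 summary per probe set. Deposited values ran from 3.256 to 2822995, with 1040 to 1153 probe sets per array above 65535, the ceiling of a 16-bit scanner, and their unit is not stated. Their natural log, 1.18 to 14.85, was taken.

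In the platform annotation 34958 probe sets had 1 symbol, 932 had several and 9211 had no symbol. For 34754 the Entrez identifier matched a RefSeq gene, whose symbol was then used, whether or not it differed. Members were picked by the symbol of the platform annotation. Group means were estimated from all 6 arrays together (limma 3.58.1, R 4.3.3; residual degrees of freedom 3, prior 3.13), two-sided with eBayes, for 28363 of 45037 probe sets other than the 64 controls, with Benjamini-Hochberg adjustment over them. The fit was tested on simulated data. Named from each list were genes at an unadjusted p under 0.01 without overlap, at most 4 per comparison; other genes named beside them, such as Stat5a, Alas1, Nprl3 and Rhbdf1, were chosen after their values were seen. Members and lists were chosen with earlier results of these data known. The number of arrays limits the precision. Alternatives were the filter, 1 probe set per gene, the limit for dim values, centring, eBayes options, array weights, fewer arrays, the replicate number as a block and leaving out each array. The number of columns of per-sample values left unused was 0.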

Additional observations from a re-analysis of the deposited data

How the results depend on the processing

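With each array left out in turn, the median member difference ran from 0.95 to 1.67 log units for WT Scl+ against WT Scl-, from -2.28 to -1.01 for SclKO against WT Scl+ and from -0.64 to -0.03 for SclKO against WT Scl-. Calls over all probe sets ran from 0 to 46, 0 to 1172 and 0 to 3 in the same order, and member probe sets at an unadjusted p under 0.01 from 3 to 6, 4 to 8 and 0 to 2. With dim values set to the limit, the SclKO against WT Scl+ median over the 13 was -0.94, with the 4 probe sets that are dim on all arrays counted near 0 and given no value of their own. In that comparison 3 calls over all probe sets became 1 with 1 probe set per gene, 32 with trend and robust eBayes, 27 with only the 4 arrays compared and 6 with the replicate number as a block. For SclKO against WT Scl- they became 1 with 1 probe set per gene, 11 with trend and robust eBayes, 7 with array weights, and 6 both with the filter at the 60th percentile and with values at the limit. For WT Scl+ against WT Scl-, 4 in place of 7 member probe sets had an unadjusted p under 0.01 with only the 4 arrays compared. Same-numbered arrays deviated together with a correlation of 0.21 to 0.24, but the labels give no pairing and each comparison has 2 numbers; the replicate block left 5, 7 and 0 member probe sets at that threshold. Small SclKO against WT Scl- differences turned sign: with values at the limit Hba-x was -0.02 and Klf1 -0.09; leaving out 1 array gave ranges of -0.24 (WT Scl- replicate 1) to 0.32 (WT Scl- replicate 2) for Klf1, which was -0.04 without SclKO replicate 2, and, without WT Scl- replicate 1 and 2 in that order, -2.74 and 0.25 for Hbb-bh1 1437990_x_at, -0.98 and 0.09 for 1450736_a_at and -1.02 and 0.37 for Nfe2. Except where an alternative by its construction uses fewer arrays or probe sets, the cause was not tested. Leaving out an array leaves 1 in its group, assumed to vary like the others. For these alternatives the share of all probe sets at an unadjusted p under 0.01 was not counted, so the member counts only describe them.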

Other observations

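Adult alpha globin probe sets did not read alike. One annotated to Hba-a2 alone (1427219_at) lay between 11.12 and 11.47 on all 6 arrays, with a difference of -0.11 log units between WT Scl+ and WT Scl-. The one annotated to Hba-a1 alone (1453574_at) was dim on all arrays, between 4.05 and 4.38. Of those annotated to both genes, 1428361_x_at was at 6.38 and 6.85 in WT Scl+, 5.74 and 6.04 in WT Scl- and 5.57 and 5.96 in SclKO, and 1452757_s_at was dim, between 2.32 and 3.81. The sources used here do not give which transcripts each probe set reads.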
